A study of Mus musculus with 4 samples.

Results

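The genes described here are 8 protein kinases of spermatids and other germ cells of the testis: Tssk1, Tssk2, Haspin, Camk4, Csnk2a2, Prkcd, Mak and Nek2. They were taken from a fixed list of names, and a probe set was counted as theirs where the array annotation gave it that 1 gene and no other. This gave 11 probe sets for the 8 genes, of 12422 probe sets on the array once controls were left out; the array named 8251 genes in all. The tissue was whole testis of C57BL/6J males aged 16 weeks, measured on 2 arrays of Tslc1-/- mice and 2 arrays of Tslc1+/+ mice. Tslc1, now named Cadm1, is an adhesion molecule of the immunoglobulin superfamily. The labels do not state which part of the gene is deleted or whether arrays of 1 genotype stand for different animals. The p-values thus cover the scatter between these 4 arrays alone, which may be technical. For each probe set that scatter was estimated partly from other probe sets of like signal.

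Protein kinases transfer phosphate to other proteins, and male germ cells use kinases that other tissues make in small amounts or not at all. Spermatocytes need cell cycle kinases for the meiotic divisions. Spermatids, which no longer divide, need others while they condense the nucleus and build the acrosome and tail. In mice, loss of both Tssk1 and Tssk2 or of Csnk2a2 leaves males infertile, with malformed sperm.

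The 4 arrays were alike in brightness, with median signals between 361.5 and 378.0, and the log2 signals of any pair of arrays correlated across probe sets with r between 0.894 and 0.905, over probe sets that are not independent of each other. Cadm1 read 443.5 and 444.9 in Tslc1-/- testis, against 3960.0 and 3925.2 in Tslc1+/+ testis, on the first of its tested probe sets. This runs the way the labels state, though every Cadm1 probe set has a name suffix for probes that may bind other transcripts. Signals are in the authors' scaled units, and a signal can be set against another array's but not against another probe set's, because probes bind with unequal strength. Changes are log2 differences of signal plus 50, Tslc1-/- minus Tslc1+/+. They were tested over the 7975 probe sets with a mean signal of at least 200, and a change is called where limma's Benjamini-Hochberg adjusted p lies below 0.05.

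Of the 11 kinase probe sets, 10 were bright enough to test and the Camk4 probe set was not. Tssk2 and the first Prkcd probe set (104531_at) fell in Tslc1-/- testis, by 0.54 and 0.62 on the log2 scale. The other 8 tested probe sets were not called. No kinase probe set was called higher (limma); 4 of the 10 had an unadjusted p under 0.05, and each of those had a negative change. At that unadjusted threshold lay 10% of all tested probe sets, and 5.22% with a negative change. Over all tested probe sets 0.84% were called lower, 0.238% higher and 1.08% in either direction. Calls were more frequent among bright probe sets: of 714 tested probe sets with a mean signal of at least 5000, a threshold chosen after the data were seen, 6.58% were called lower. Of the kinase probe sets, 5 were that bright, and 2 of them fell. The median change of the 10 kinase probe sets was -0.26, beside 0.02 for all tested probe sets and -0.03 for those with a mean signal of at least 5000.

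**Figure D1:**
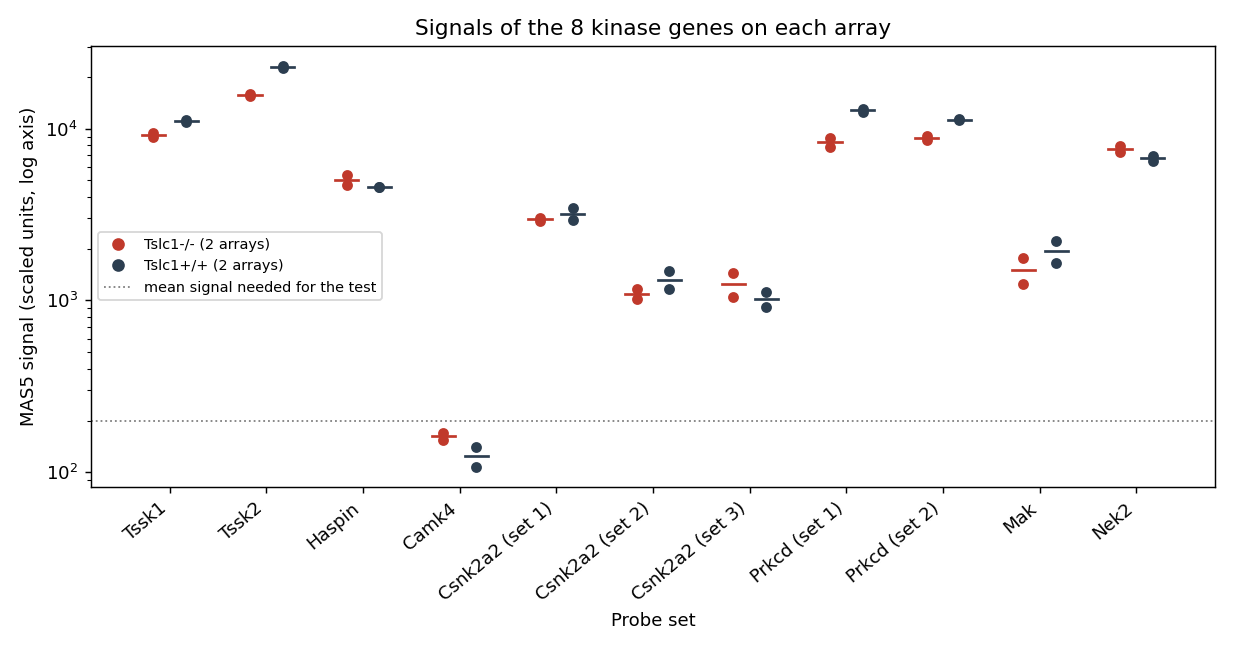
Signal of each kinase probe set on each array, in MAS5 scaled units on a log axis, with Tslc1-/- arrays in red to the left of Tslc1+/+ arrays in dark blue and a bar at each mean. The arrays of the genotypes lie apart for Tssk1, Tssk2 and both Prkcd probe sets, lower in Tslc1-/-, and for Haspin, Nek2 and Camk4, higher in Tslc1-/-. Those of Mak and of the 3 Csnk2a2 probe sets overlap, and Camk4 lies under the dotted line at a signal of 200.

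Tssk1 and Tssk2 encode the testis-specific serine kinases, which are made in spermatids after meiosis. They are neighbours on mouse chromosome 16, with no protein-coding gene between them in the annotation. Tssk2 (102846_at) read 15490.5 and 15949.9 in Tslc1-/- testis, against 22644.1 and 23169.2 in Tslc1+/+ testis. Both Tslc1-/- arrays lay well below both Tslc1+/+ arrays, and the arrays of a genotype differed little from each other. Tslc1-/- arrays averaged 15720 ± 325 and Tslc1+/+ arrays 22907 ± 371 (SD, n = 2 each). This was a 1.46-fold decrease, or -0.54 on the log2 scale (standard error 0.08; limma, adjusted p = 0.0101). The change stayed between -0.56 and -0.52 with any 1 array left out, but Tssk2 was then not called (limma, adjusted p = 0.0676 to 0.124), and it was not called with a spread estimate that ignored signal (limma, adjusted p = 0.545).

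Tssk1 (103360_at) read 8896.4 and 9461.3 in Tslc1-/- testis, against 11199.4 and 10950.3 in Tslc1+/+ testis. The genotypes again did not overlap, with the Tslc1-/- arrays below. The log2 change was -0.27 with a 95% interval from -0.48 to -0.06, and it was not called (limma, unadjusted p = 0.0169, adjusted p = 0.325). Whether Tssk2 changed more than Tssk1 was tested within arrays. The log2 signal of Tssk2 exceeded that of Tssk1 by 0.80 and 0.75 on the Tslc1-/- arrays and by 1.01 and 1.08 on the Tslc1+/+ arrays. The difference in change was -0.27 (exact permutation test over arrays, two-sided p = 0.333), which is the smallest p that 2 arrays against 2 can give. Both Tslc1-/- differences lay below both Tslc1+/+ differences by more than the arrays of a genotype differed, but a test of this size cannot pass the threshold and so does not decide whether the pair responded unequally.

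The upstream windows of both genes are shown because these neighbours both had lower signals on each Tslc1-/- array. Each window runs from 250 bases before to 50 bases after the gene start and comes from RefSeq on build GRCm38.p6, at chr16:17893953-17894252 for Tssk1 and chr16:17898387-17898686 for Tssk2, both on the plus strand. Capitals mark the words of at least 8 bases that both windows hold on the plus strand at places no more than 15 bases apart.
Tssk1: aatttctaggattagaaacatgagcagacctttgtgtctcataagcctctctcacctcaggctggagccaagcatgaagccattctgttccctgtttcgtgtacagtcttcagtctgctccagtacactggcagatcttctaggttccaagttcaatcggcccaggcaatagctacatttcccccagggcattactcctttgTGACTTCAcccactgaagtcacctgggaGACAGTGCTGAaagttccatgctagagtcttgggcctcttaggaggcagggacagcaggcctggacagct
Tssk2: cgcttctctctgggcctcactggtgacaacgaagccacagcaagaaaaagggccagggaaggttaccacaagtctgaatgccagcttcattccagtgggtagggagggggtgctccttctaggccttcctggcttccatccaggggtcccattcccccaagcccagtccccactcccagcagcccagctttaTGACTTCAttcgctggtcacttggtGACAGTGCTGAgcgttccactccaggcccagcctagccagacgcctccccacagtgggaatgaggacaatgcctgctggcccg
The marked words are TGACTTCA, which starts at base -48 in Tssk1 and base -58 in Tssk2, and GACAGTGCTGA, which starts at base -20 in Tssk1 and base -33 in Tssk2. The first word differs by 1 base from TGACGTCA, the cyclic AMP response element that CREB and CREM proteins bind. With both strands searched, 1.52% of the 32851 windows in the table hold TGACTTCA and 1.79% hold TGACGTCA. Of the 7 kinases with a window in the table, Tssk1 and Tssk2 hold TGACTTCA, Tssk1 also on the minus strand at bases -35 to -28, and none holds TGACGTCA. These are matches of letters, chosen after the windows were read, and not binding sites.

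The probe sets whose pattern over the 4 arrays lay closest to that of Tssk2, by Euclidean distance between log2 values centred on their means, were those of Hmgb4, Tcp11 and Cyb5r4, at distances of 0.012, 0.016 and 0.020. Hmgb4, a high mobility group protein gene, fell by 0.53 in log2 units (limma, adjusted p = 0.0185), and was not called with any 1 array left out (adjusted p = 0.0994 to 0.159). The sperm motility gene Tcp11 fell by 0.55 (limma, adjusted p = 0.00231; 0.0529 without Tslc1+/+ replicate 2). Cyb5r4, a cytochrome b5 reductase gene, had a change of -0.54 and was not called (limma, adjusted p = 0.15). With only 4 arrays, a small distance means mainly a change of like size and little scatter.

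Tsks encodes a protein that TSSK1 and TSSK2 bind and phosphorylate. Its signals were 3488.4 and 3189.0 in Tslc1-/- testis, against 4693.3 and 4318.4 in Tslc1+/+ testis. The genotypes did not overlap, and the log2 change of -0.43 was not called (limma, 95% interval -0.71 to -0.15, adjusted p = 0.203). The related kinases Tssk3, Tssk4, Tssk5 and Tssk6 had no probe set naming them alone, so the family is described by 2 kinases.

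Haspin phosphorylates histone H3 and was first described in mouse as a transcript of haploid germ cells. It read 4685.6 and 5359.3 in Tslc1-/- testis, against 4577.9 and 4603.6 in Tslc1+/+ testis. Both Tslc1-/- arrays were above both Tslc1+/+ arrays, by a narrow margin for the first. The log2 change was 0.13 with a 95% interval from -0.14 to 0.39 (limma, adjusted p = 0.792). Falls of the size of that of Tssk2 lie outside this interval. Haspin lies within the span of Itgae, an integrin gene. The array annotation gave this probe set to Haspin alone, and whether its probes could also read Itgae transcripts was not checked. The Itgae probe sets had changes of -0.01 and -0.20 (limma, adjusted p = 0.989 and 0.803).

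Camk4 encodes a calmodulin-dependent kinase, and in rodents the same gene also makes calspermin, a calmodulin-binding protein of spermatids transcribed from a start inside the gene. The Camk4 probe set read 170.2 and 153.8 in Tslc1-/- testis, against 107.6 and 141.1 in Tslc1+/+ testis. These are dim signals. With a mean of 143.2 the probe set fell below the signal filter and has no call. Fitted with all 12422 probe sets and no filter, it had a log2 change of 0.29 with a wide 95% interval, from -0.96 to 1.54, so a fall or a rise of the size seen for Tssk2 was not detectable on this probe set. Which of the gene's transcripts the probe set reads is not given in the sources used here.

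Csnk2a2 encodes the alpha prime catalytic subunit of casein kinase II, the form enriched in testis. Its brightest probe set (94482_at) read 2903.4 and 3027.8 in Tslc1-/- testis, against 2940.1 and 3435.6 in Tslc1+/+ testis. The second (94483_at) read 1165.8 and 1014.2 in Tslc1-/- testis, against 1158.2 and 1475.7 in Tslc1+/+ testis. The third (98245_at) read 1040.4 and 1446.1 in Tslc1-/- testis, against 914.3 and 1112.4 in Tslc1+/+ testis. The genotypes overlapped on all 3. The log2 changes were -0.10, -0.26 and 0.27, and none was called (limma, adjusted p = 0.864, 0.747 and 0.754; each had an unadjusted p above 0.05). The probe sets thus disagreed in sign, and the first also turned to 0.01 without Tslc1+/+ replicate 2. Their differences in change ran from -0.53 to 0.16 over the 3 pairs (exact permutation tests, two-sided p = 0.333, 0.333 and 0.667). The 95% interval of the brightest was the narrowest, -0.41 to 0.21. Csnk2a1, the other catalytic subunit gene, had a change of -0.45 on its brightest probe set (limma, adjusted p = 0.747).

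Prkcd encodes protein kinase C delta, a diacylglycerol-activated kinase that needs no calcium and is made in many cell types. Its first probe set (104531_at) read 8811.8 and 7823.2 in Tslc1-/- testis, against 13033.1 and 12536.9 in Tslc1+/+ testis. Both Tslc1-/- arrays lay far below both Tslc1+/+ arrays. Tslc1-/- arrays averaged 8318 ± 699 and Tslc1+/+ arrays 12785 ± 351 (SD, n = 2 each). This was a 1.54-fold decrease, or -0.62 on the log2 scale (standard error 0.10; limma, adjusted p = 0.0147). It was the largest change among the 10 tested kinase probe sets in size.

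The second Prkcd probe set (160698_s_at) has a name suffix by which Affymetrix marks probes that may bind other transcripts. It read 9036.2 and 8562.1 in Tslc1-/- testis, against 11167.4 and 11429.2 in Tslc1+/+ testis. The genotypes did not overlap here either, with the Tslc1-/- arrays below. The log2 change of -0.36 was not called (limma, 95% interval -0.57 to -0.15, unadjusted p = 0.00338, adjusted p = 0.144). The first probe set's change differed from it by -0.26 (exact permutation test over arrays, two-sided p = 0.333, the smallest possible). With 1 array left out, the first probe set was called only without Tslc1-/- replicate 1 (limma, adjusted p = 0.0487, against 0.121 to 0.143 without each of the others), and its change ran from -0.70 to -0.53. It was not called with a spread estimate that ignored signal (limma, adjusted p = 0.542).

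The upstream window of Prkcd is shown because this gene fell and because it looks unlike those of the Tssk genes. It lies at chr14:30626159-30626458 on the minus strand (RefSeq, GRCm38.p6), at the outermost of the gene's starts in the table, and capitals mark the GC box core GGGCGG.
Prkcd: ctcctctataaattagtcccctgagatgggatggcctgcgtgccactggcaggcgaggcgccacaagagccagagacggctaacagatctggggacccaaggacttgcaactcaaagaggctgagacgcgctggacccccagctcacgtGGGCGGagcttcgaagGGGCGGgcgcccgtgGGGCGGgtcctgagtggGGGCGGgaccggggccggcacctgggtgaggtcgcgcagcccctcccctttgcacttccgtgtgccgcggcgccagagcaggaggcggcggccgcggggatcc
The core occurs 4 times, between bases -101 and -48, and 35.7% of all windows hold it on either strand. Haspin, Csnk2a2 and Mak also hold it, while Tssk1, Tssk2 and Nek2 do not. The window is 69.3% G and C, beside 50.7% for Tssk1, 59.7% for Tssk2 and a median of 52.7% over all windows. The motif was chosen after the windows were read.

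Mak, the male germ cell-associated kinase, is a relative of the cyclin-dependent kinases and is made in spermatocytes and later germ cells. It read 1252.5 and 1768.4 in Tslc1-/- testis, against 1662.0 and 2203.6 in Tslc1+/+ testis. The genotypes overlapped, and the arrays of each genotype differed from each other by a similar amount. The log2 change was -0.35 with a 95% interval from -0.83 to 0.12 (limma, adjusted p = 0.652), so a fall as large as that of Prkcd could not be told from none. Mok, a kinase of the same family, had a change of 0.10 (limma, adjusted p = 0.873).

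Nek2 acts at the centrosome in cell division and is abundant in meiotic spermatocytes. It read 7355.6 and 7907.1 in Tslc1-/- testis, against 6973.4 and 6486.4 in Tslc1+/+ testis. Both Tslc1-/- arrays were above both Tslc1+/+ arrays. The log2 change was 0.18 with a 95% interval from -0.06 to 0.42 (limma, adjusted p = 0.642). As with Haspin, this interval leaves out a fall of the size seen for Tssk2.

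**Figure D2:**
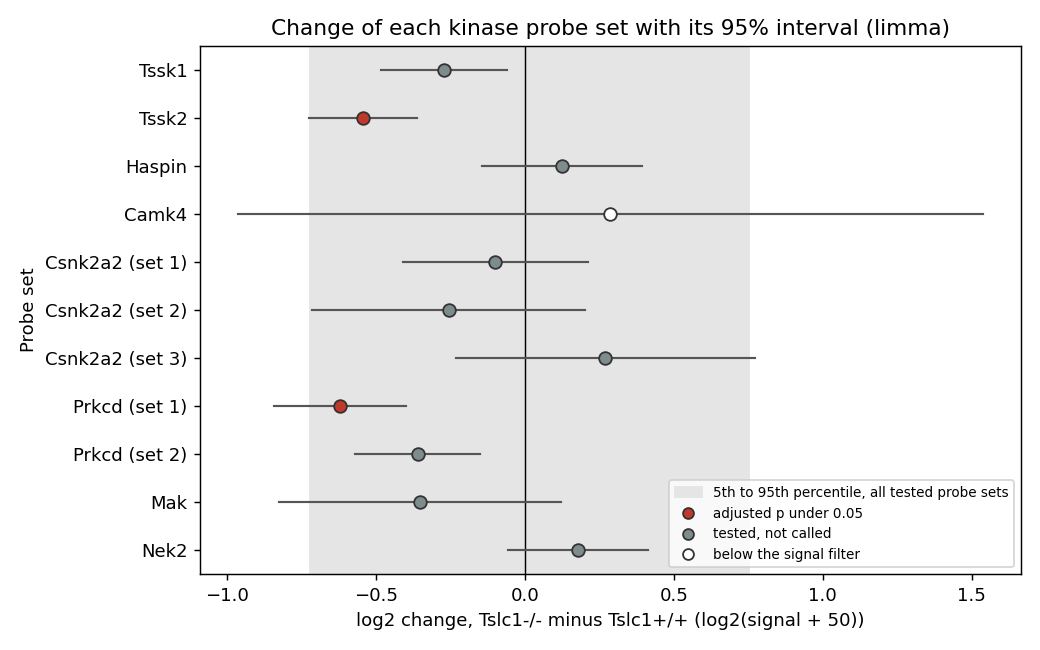
Log2 change of each kinase probe set, Tslc1-/- minus Tslc1+/+, with its 95% interval from limma, over a grey band from the 5th to the 95th percentile of all tested probe sets (-0.72 to 0.75). The called changes of Tssk2 (-0.54) and the first Prkcd probe set (-0.62) lie inside the band, and the Camk4 interval is the widest.

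Counted over the 10 tested probe sets, 7 had a negative and 3 a positive change. The genotypes did not overlap on 6 of them, 4 lower and 2 higher in Tslc1-/-. Over all tested probe sets the genotypes did not overlap on 40%, with 18.5% lower and 21.5% higher, so separation of 2 arrays from 2 was frequent everywhere. Among the kinases the lower ones were the probe sets of Tssk1, Tssk2 and Prkcd, and the higher ones those of Haspin and Nek2.

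Other kinases and partners were taken from lists of 98 related kinases and 15 partners of the 8 genes. Of the kinases, 72 were on the array and 61 were tested. Csnk1g2 and Srpk2 fell, none rose, and 59 were not called; 7 had an unadjusted p under 0.05 (limma), beside 10% of all tested probe sets. The median change was -0.02, with 32 negative and 29 positive changes. As a share, 2 of 61 called lower stands beside 0.84% of all tested probe sets. It also stands beside 6.58% of those with a mean signal of at least 5000. Csnk1g2 and Srpk2 were both that bright, with mean signals of 36919 and 6947.

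Csnk1g2, a membrane-bound casein kinase I isoform, read 28975.3 and 27622.8 in Tslc1-/- testis, against 47268.5 and 43811.1 in Tslc1+/+ testis. It fell by 0.68 in log2 units (limma, adjusted p = 0.00143) and was called with any 1 array left out (adjusted p = 0.0182 to 0.0418). Srpk2, a kinase of splicing factors, read 5467.0 and 5082.1 in Tslc1-/- testis, against 8263.4 and 8974.2 in Tslc1+/+ testis. It fell by 0.70 (limma, adjusted p = 0.0115), and was not called with any 1 array left out (adjusted p = 0.0687 to 0.126). The genotypes did not overlap for either gene, with the Tslc1-/- arrays below. Neither was called with a spread estimate that ignored signal (limma, adjusted p = 0.505 for each).

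By family, none of 4 calmodulin-dependent kinases was called, with a median of -0.16. Their median was positive with no signal filter (0.073) and with a filter at 500 (0.059). Of the 4, 1 had an unadjusted p under 0.05, Phkg2, the testis and liver catalytic subunit of phosphorylase kinase, at -0.38 (limma, adjusted p = 0.0814). Phkg2 was called when suffixed probe sets were left out (limma, adjusted p = 0.0428). Besides Csnk1g2, the 3 other casein kinases were not called, and the list median was -0.28 (-0.48 to -0.09 with 1 array left out). None of 5 protein kinase C relatives was called or had an unadjusted p under 0.05 (limma, median -0.23), with Prkcq, protein kinase C theta, at -0.28 (adjusted p = 0.695). That median was positive without Tslc1+/+ replicate 2 (0.018) and without Tslc1-/- replicate 2 (0.086), so the list had no settled direction. Prkca was below the signal filter, at a mean of 187.9.

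None of 11 relatives of Mak and cyclin-dependent kinases was called or had an unadjusted p under 0.05 (limma, median -0.16, or -0.19 to -0.0022 with 1 array left out), with Cdk5 at -0.33 (adjusted p = 0.616). The same held for 14 NEK and mitotic kinases (limma, median -0.13, or -0.12 to -0.0033 with 1 array left out), with Wee1, an inhibitor of mitotic entry, at -1.04 (adjusted p = 0.525). The Wee1 change was -0.38 without Tslc1-/- replicate 1 and -1.70 without Tslc1-/- replicate 2. Besides Srpk2, the 22 other germ cell kinases were not called, and 16 of the 23 had a positive change, with a median of 0.16 (0.039 to 0.15 with 1 array left out). Of 9 tested partners none was called and 1 had an unadjusted p under 0.05 (limma), which was Tsks, and the median was -0.07 (-0.099 to 0.033 with 1 array left out). Crem, the spermatid transcription regulator, had a change of -0.08 on its brightest probe set (limma, adjusted p = 0.965) and -1.12 on a dimmer one (adjusted p = 0.517).

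**Figure D3:**
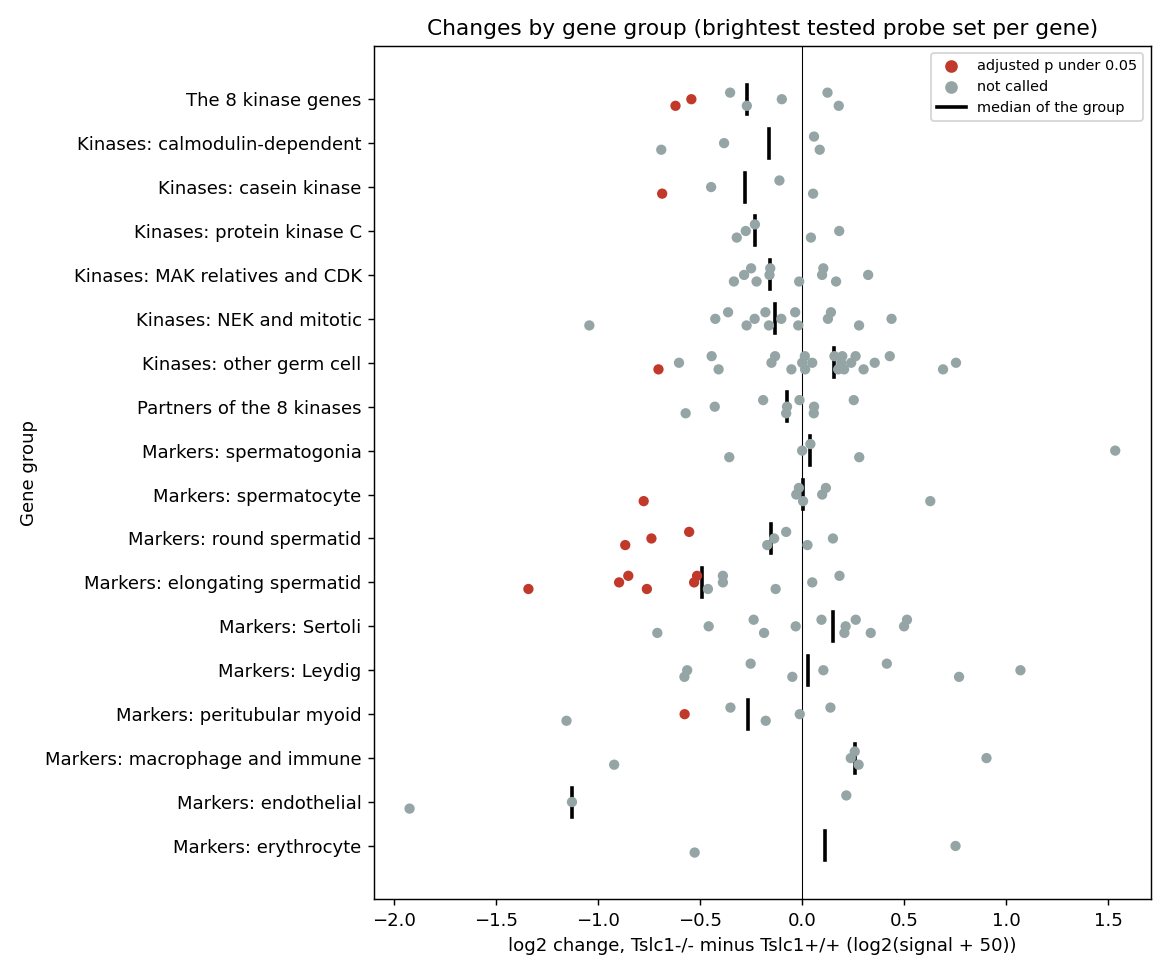
Log2 change, Tslc1-/- minus Tslc1+/+, of the brightest tested probe set of each gene in the 8 kinases, the related kinase lists, their partners and the cell type marker lists; red points are called and black bars are medians. Each called gene drawn lies left of 0, most of them in the spermatid marker groups, and the elongating spermatid median is -0.49; Camk4 was not tested and is not drawn.

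Levels in whole testis depend on its mix of cells, and in bulk tissue fewer cells of a type and less RNA per cell cannot be told apart. Elongating spermatid markers summed to 449384.2 and 421501.8 in Tslc1-/- testis, against 611934.1 and 619154.2 in Tslc1+/+ testis. The brightest probe sets weigh most in this sum. They were those of Tnp2, which was not called (limma, change -0.39), and Gapdhs, with mean signals of 119991 and 100771. Of the 12 tested genes in this list 6 fell and none rose, with a median of -0.49. The 6 were Oaz3 (-1.34), Akap4 (-0.90), Odf1 (-0.85), Prm3 (-0.76), Tnp1 (-0.53) and Gapdhs (-0.51), which serve the sperm tail, chromatin packing, polyamine control and glycolysis. Each had a mean signal of at least 5000, and 6.58% of all tested probe sets that bright were called lower. The Tnp1 and Gapdhs probe sets carry a name suffix for possible cross-hybridisation. Of the 12 elongating spermatid genes 10 had a negative change, Prm1 at only -0.13. The 2 with a positive change were Actl7b at 0.05 and Prm2 at 0.18, the latter on a dim probe set. Round spermatid markers summed to 133839.6 and 133174.0 in Tslc1-/- testis, against 184201.1 and 190951.2 in Tslc1+/+ testis. Of its 8 tested genes 3 fell and none rose, with a median of -0.15 (-0.27 to -0.063 with 1 array left out). The 3 were Theg (-0.87), Gsg1 (-0.74) and Tcp11 (-0.55), the last on a suffixed probe set. The round spermatid sum is carried by the bright probe sets of Gsg1, which averaged 44710 in Tslc1-/- and 74629 in Tslc1+/+, and of Tcp11, which averaged 49223 in Tslc1-/- and 72215 in Tslc1+/+, while Acr and Tcp10b had changes of 0.15 and 0.03. Both sums were lower on the Tslc1-/- arrays, alongside the falls of Tssk2 and Prkcd, and their part in those falls was not tested.

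Marker sums of earlier germ cells overlapped between the genotypes, and 1 probe set was the largest part of each. These were Ldhc (change -0.02) for spermatocytes and Ddx4 (change 0.0009) for spermatogonia. Spermatocyte markers summed to 99787.6 and 92704.0 in Tslc1-/- testis, against 97503.1 and 100416.5 in Tslc1+/+ testis. Of 7 tested genes 1 fell, Pgk2 by 0.78, and the median was 0.01. Of 5 spermatogonial genes none was called and 4 had a positive change (limma, median 0.04, or -0.061 to 0.19 with 1 array left out). An unadjusted p under 0.05 was found for 2 of them. These were the translation regulator Dazl, at -0.36 (limma, adjusted p = 0.244) and at 0.25 on its other tested probe set, and Stra8, at 1.53 on a dim probe set (adjusted p = 0.407). Pgk2, a germ cell glycolytic enzyme, was called without Tslc1-/- replicate 2 but not without each of the other arrays (limma, adjusted p = 0.0529 to 0.0774).

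Of somatic markers, none of 12 Sertoli genes was called or had an unadjusted p under 0.05 (limma, median 0.15, Rhox5 at 0.51). None of 8 Leydig genes was called, and 2 had an unadjusted p under 0.05 (limma, median 0.03, Cyp17a1 at -0.58). With 1 array left out the Sertoli median ran from -0.045 to 0.21 and the Leydig median from -0.13 to 0.088. Neither list thus had a settled direction. Of 6 peritubular myoid genes Actg2 fell by 0.57, with a list median of -0.26, and Actg2 was not called with any 1 array left out (limma, adjusted p = 0.0907 to 0.183). None of 5 macrophage and immune genes (median 0.26, Laptm5 at 0.90), 3 endothelial genes (Pecam1 at -1.92) or 2 erythrocyte genes (median 0.11, Hba-a1 at 0.75) was called, with 2, 1 and 2 of them at an unadjusted p under 0.05 (limma). The 2 immune genes ran opposite ways, since Csf1r was at -0.92, though at 0.20 on its other tested probe set. The endothelial median was -1.13, but -0.23 without Tslc1-/- replicate 1 and -0.19 with no signal filter, and Pecam1 was called when suffixed probe sets were left out (limma, adjusted p = 0.0469). Prkcd is made by several of these cell types. Marker sums that lay lower on both Tslc1-/- arrays, as Prkcd did, were those of myoid, Leydig and endothelial genes. Myoid genes summed to 12206.6 and 11838.6 in Tslc1-/- testis, against 15541.5 and 17072.2 in Tslc1+/+ testis. Leydig genes summed to 13256.3 and 14890.9 in Tslc1-/- testis, against 15525.2 and 15653.7 in Tslc1+/+ testis. Endothelial genes summed to 833.0 and 1013.9 in Tslc1-/- testis, against 1845.7 and 1532.8 in Tslc1+/+ testis. Most of the difference in each of these sums came from a single probe set. The suffixed Actg2 probe set averaged 8258 in Tslc1-/- and 12337 in Tslc1+/+, while Acta2 had a change of 0.14. Cyp17a1 averaged 3325 in Tslc1-/- and 4951 in Tslc1+/+, while 4 of the 8 Leydig genes had a positive change, Hsd3b6 at 1.07. The 3 endothelial probe sets were dim. Pecam1 averaged 181 in Tslc1-/- and 799 in Tslc1+/+, while Kdr had a change of -1.13 and Vwf one of 0.22. Immune marker signals summed to 5486.5 and 3874.7 in Tslc1-/- testis, against 4271.3 and 3887.5 in Tslc1+/+ testis, and overlapped. Sertoli markers summed to 36501.8 and 35111.3 in Tslc1-/- testis, against 37255.9 and 35180.6 in Tslc1+/+ testis, with both Tslc1-/- arrays within or just under the Tslc1+/+ range. Erythrocyte markers summed to 2490.7 and 2352.4 in Tslc1-/- testis, against 1863.6 and 2172.6 in Tslc1+/+ testis, higher on both Tslc1-/- arrays. The 2 erythrocyte genes ran opposite ways, Hba-a1 at 0.75 and Alas2 at -0.53, so Hba-a1 alone raised this sum. The part of any of these cell types in the fall of Prkcd was not tested.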

How the data were processed

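RNA of mouse testis was measured on 4 Affymetrix mouse genome arrays of the U74 series. The authors deposited 1 linear intensity per probe set and array. It was computed with Microarray Suite 5.0, per the labels' design text, and the submitters' processing notes name MAS5 as well. Each array was scaled by the authors to the same target intensity, so a change in total RNA cannot be seen. The primer at the poly(A) tail, per the same text, favours transcript 3' ends. Detection calls were not used here. Precision is limited by having 2 arrays a genotype.

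Groups follow the sample titles. Of 12488 probe sets, 66 controls were left out. The platform annotation gave 1 gene to 10833 of the other 12422, several to 396 and none to 1193; 10817 were updated through Entrez identifiers to RefSeq symbols of GRCm38.p6, which was otherwise used for neighbourhood, since the files name no build. Promoter windows are RefSeq's and matched 7 of the 8 kinases by symbol.

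Signals were used as log2(signal + 50), a scale that shrinks the changes of dim probe sets, with no further normalization, where the mean over 4 arrays was at least 200. Tests were limma 3.58.1 in R 4.3.3 (lmFit, eBayes with an intensity trend), two-sided, Benjamini-Hochberg adjusted over 7975 probe sets; 1621 of these carry a suffix for possible cross-hybridisation. Differences between probe sets used exact permutation tests (scipy 1.17.1). Fits were tested on simulated data. Genes outside the 8 are represented by their brightest tested probe set. The text names, beside the 8, called genes and the gene with the smallest p of each list, close relatives on the array, and the 3 probe sets most like Tssk2. Some further marker genes are named to show how members of a list differed. Members, lists and thresholds were chosen with earlier results of these data known.

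Alternatives tried were no intensity trend, pseudocounts of 16 and 200, no signal filter or one at 500, quantile normalization, equal array medians, no suffixed probe sets, the replicate number as a block, and each array left out. Same-numbered arrays deviated together with a correlation of -0.0012 over probe sets, and nothing in the labels ties them.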

Additional observations from a re-analysis of the deposited data

How the results depend on the processing

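The number of kinase probe sets called was 2 under 7 of the alternatives that keep all arrays, 0 without the intensity trend (limma, 2 at an unadjusted p under 0.05) and 3 with the replicate block, where the second Prkcd probe set joined (adjusted p = 0.0475). With 1 array left out it was 0 to 1, with 3 to 5 kinase probe sets at an unadjusted p under 0.05. Over all probe sets, 86 were called, 67 lower and 19 higher. Without the trend these counts were 0, 0 and 0 (limma, 638 at an unadjusted p under 0.05), with the replicate block 239, 154 and 85, and with 1 array left out 37 to 43, 28 to 39 and 4 to 14. With no signal filter 10 were called higher. Related kinases called numbered 2, and 0 without the trend, 4 with the replicate block, 3 without suffixed probe sets, where Phkg2 was added, and 1 to 2 with 1 array left out. Cell type markers called numbered 11, and 0 without the trend, 7 with no signal filter, 17 with the replicate block and 5 to 8 with 1 array left out. The replicate numbers are not shown to pair arrays, so the block result is given only here.

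The sign of the change held under the alternatives run for the 10 tested kinase probe sets, except that the brightest Csnk2a2 probe set ran from -0.21 to 0.012 with 1 array left out, being positive without Tslc1+/+ replicate 2. With 1 array left out the brightest Itgae probe set ran from -0.099 to 0.075, positive without Tslc1+/+ replicate 1 (0.039) and without Tslc1-/- replicate 1, and that of Crem from -0.19 to 0.033, positive without Tslc1+/+ replicate 1. Under the alternatives that keep all arrays, Tssk2 had changes from -0.55 to -0.43. The first Prkcd probe set then ran from -0.63 to -0.57, and the second, where kept, from -0.37 to -0.28. Camk4, at a mean signal of 143.2, was too dim to be tested.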
